A study of Mus musculus with 2 samples.

Results

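The Gata3 and Il1rl1 innate lymphoid-like cells described here were 251 cell barcodes of 19826 that passed the quality filter in single-cell RNA libraries of CD45-sorted tumour cells. They were selected by detection of genes. A member had a unique molecular identifier (UMI, a tag that marks each captured RNA molecule) of at least 2 of Il1rl1, Gata3, Icos, Il2ra and Rora and of at most 1 of the natural killer genes Eomes, Ncr1, Prf1 and Gzma, it had none of Csf1r (macrophages) or Flt3 (dendritic cells), and S100a8 and S100a9, the abundant calcium-binding proteins of neutrophils, took under 2% of its UMIs. The filter asked for at least 500 UMIs, over 200 and under 6000 genes and under 5% mitochondrial UMIs. The tumours were 143B human osteosarcoma cells grown under the skin of the right flank of female nude mice, 4 weeks old at inoculation, a strain that lacks a thymus and is deficient in T cells. One group received control IgG, an IgG1 isotype antibody, and the other received anti-CD3L1, both at 10 mg/kg every 3 days for 4 doses. Each group was represented by 1 library, made from 3 tumours whose cells carried no tumour label, so no test between the groups was possible and no p-value is given. Intervals are 95% intervals for counting error only and say nothing of the spread between animals. The filter passed 8557 control IgG and 11269 anti-CD3L1 barcodes, and the members were 43 and 208 of these.

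Innate lymphoid cells are lymphocytes without rearranged antigen receptors that respond to cytokines and alarmins in tissues. Group 2 cells depend on the transcription factors GATA3 and RORα, sense interleukin-33 through ST2 (encoded by Il1rl1), and secrete interleukin-5, interleukin-13 and amphiregulin. Group 3 cells carry the interleukin-23 receptor and make interleukin-22, and group 1 cells and natural killer cells use T-bet and make interferon-γ. Regulatory and helper T cells can share Gata3, Icos, Il2ra and Il1rl1 with group 2 cells, which is why T cell genes were counted beside the members. In tumours, group 2 cells are known as a source of signals to eosinophils, macrophages and stroma.

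The gate was broader than its working name. Clustering of the members split them into 5 clusters, and only the cluster of 106 barcodes (42.2%), called type 2-like, was led by group 2 genes. A further 88 barcodes (35.1%) formed a natural killer or ILC1-like (group 1) cluster, 30 (12.0%) a type 3-like (group 3) cluster, 19 (7.57%) a macrophage-like cluster and 8 (3.19%) a stromal-like cluster. The last 27 barcodes went against the name of innate lymphoid cells, and all of them came from the anti-CD3L1 library. They are kept among the members below, and the main treatment results that rest on them are also given for the 3 lymphoid clusters alone. No doublet caller was run and no barcode was removed as a doublet.

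The group 2 products by which these cells are best known, and the receptor that was part of the gate, are shown first by their start regions in the mouse genome (RefSeq, GRCm38.p6). Each run is 300 bases, from 250 before to 50 after the annotated start, read 5′ to 3′ on the gene's strand, and capitals mark matches to the GATA motif spelled AGATAA, in which T may replace the first letter and G the last, on either strand. Il5 lies on the plus strand at chr11:53720544-53720843, Il13 on the minus strand at chr11:53634653-53634952 and the upstream of the 2 listed Il1rl1 starts on the plus strand at chr1:40429320-40429619.
Il5: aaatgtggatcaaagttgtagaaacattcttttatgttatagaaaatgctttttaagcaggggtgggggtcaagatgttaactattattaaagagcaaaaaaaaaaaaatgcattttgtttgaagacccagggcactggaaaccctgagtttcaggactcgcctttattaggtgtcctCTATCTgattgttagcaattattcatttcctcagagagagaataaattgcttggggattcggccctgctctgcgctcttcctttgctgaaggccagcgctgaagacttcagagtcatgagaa
Il13: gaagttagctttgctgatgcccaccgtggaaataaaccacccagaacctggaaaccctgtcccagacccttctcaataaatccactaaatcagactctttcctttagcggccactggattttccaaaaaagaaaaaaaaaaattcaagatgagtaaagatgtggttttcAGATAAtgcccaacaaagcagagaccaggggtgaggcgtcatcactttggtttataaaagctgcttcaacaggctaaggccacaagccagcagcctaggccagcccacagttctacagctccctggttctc
Il1rl1: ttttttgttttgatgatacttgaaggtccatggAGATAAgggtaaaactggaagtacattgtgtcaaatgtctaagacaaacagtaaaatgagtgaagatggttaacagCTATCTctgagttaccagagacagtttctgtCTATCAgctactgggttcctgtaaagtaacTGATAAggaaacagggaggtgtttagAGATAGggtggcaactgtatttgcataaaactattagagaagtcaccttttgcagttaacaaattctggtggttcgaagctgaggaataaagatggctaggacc

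The Il5 window held 1 match, 72 bases before the start, and the Il13 window 1 match, 81 bases before it. The upstream Il1rl1 window held 5 matches, and the second Il1rl1 window, at chr1:40439379-40439678, held 1. Among 32851 promoter windows of the same length, 29.8% held at least 1 match and 7.77% at least 2, so a single match was common, and matches are given as letters and not as binding sites. The windows of Areg and Cxcr6 held none, that of Rora 1 and that of Il22 2.

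The members were not spread evenly over the gate. All 5 rule genes were detected together in 14 of 43 control IgG members and 52 of 208 anti-CD3L1 members, the commonest combination in both libraries. Icos, Il2ra and Rora without Il1rl1 and Gata3 followed in the control library with 11 members, and Icos with Rora followed in the anti-CD3L1 library with 24. Rora was detected in 100% and 99.0% of members, Icos, the inducible costimulator, in 88.4% and 72.1%, and Il2ra, the high-affinity interleukin-2 receptor chain, in 72.1% and 63.9%. Gata3 was detected in 58.1% and 60.1% and Il1rl1 in 41.9% and 46.2%, so over 1 in 3 members entered without each of the genes that name the cells. These values chose the members and are given as a description.

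The edge of the gate was populated. Outside it stood 15 control IgG and 101 anti-CD3L1 barcodes that had 2 or more rule genes and exactly 2 natural killer genes, and inside it 18 of 43 and 51 of 208 members had exactly 1. Barcodes that met the other conditions with only 1 rule gene numbered 36 and 280. Cxcr6, a chemokine receptor of tissue-resident lymphocytes that the rule did not use, was detected in 0% and 1.07% of those barcodes, in 77.8% and 18.0% of members with 2 rule genes and in 100% and 71.2% of members with all 5. Il7r, the interleukin-7 receptor on which most innate lymphoid cells depend, was detected in 100% of 14 control IgG and 90.4% of 52 anti-CD3L1 members with all 5 genes, against 33.3% of 9 and 27.9% of 61 with only 2 and 16.7% and 36.1% of the barcodes with 1. The anti-CD3L1 share was thus higher with 1 rule gene than with 2. The median depth at 2, 3, 4 and 5 rule genes was 7330, 9353, 7991 and 7095 UMIs for control IgG members and 7265, 6480.5, 4406 and 4755.5 for anti-CD3L1 members, and its part in these shares was not tested. Il5 was detected in 21 of 52 anti-CD3L1 members with all 5 rule genes and in 0 of 61 with 2.

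The members were a small share of the filtered barcodes. They were 0.503% (exact binomial interval 0.364 to 0.676) of the filtered control IgG barcodes and 1.85% (1.61 to 2.11) of the filtered anti-CD3L1 barcodes. The libraries differed widely in barcodes rich in S100a8 and S100a9, which were 67.4% of the control library and 4.57% of the anti-CD3L1 library, and that share sets the denominator. Among the remaining 2792 and 10754 barcodes, members were 1.54% (1.12 to 2.07) and 1.93% (1.68 to 2.21), intervals that overlapped. Among members and natural killer-type barcodes together, members were 22.9% (17.1 to 29.5) of 188 and 20.2% (17.8 to 22.8) of 1030. The cells had been enriched with CD45 beads and pooled over tumours, so these are shares of captured barcodes and not of tumour cells. No member barcode occurred among the filtered barcodes of the other library, while 26 filtered barcodes were shared by both.

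The member RNA summed to 348094 UMIs for control IgG and 1510773 for anti-CD3L1. The lowest, median and highest UMI counts of a member were 1578, 7624 and 22244 in the control library and 945, 5512 and 29337 in the anti-CD3L1 library. Levels below are therefore given as UMIs per 1000000 of the members' summed UMIs (CPM) with an exact Poisson interval, and shares of barcodes with a UMI are set beside shares after thinning each barcode to 1000 UMIs, which 43 and 207 members reached.

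**Figure D1:**
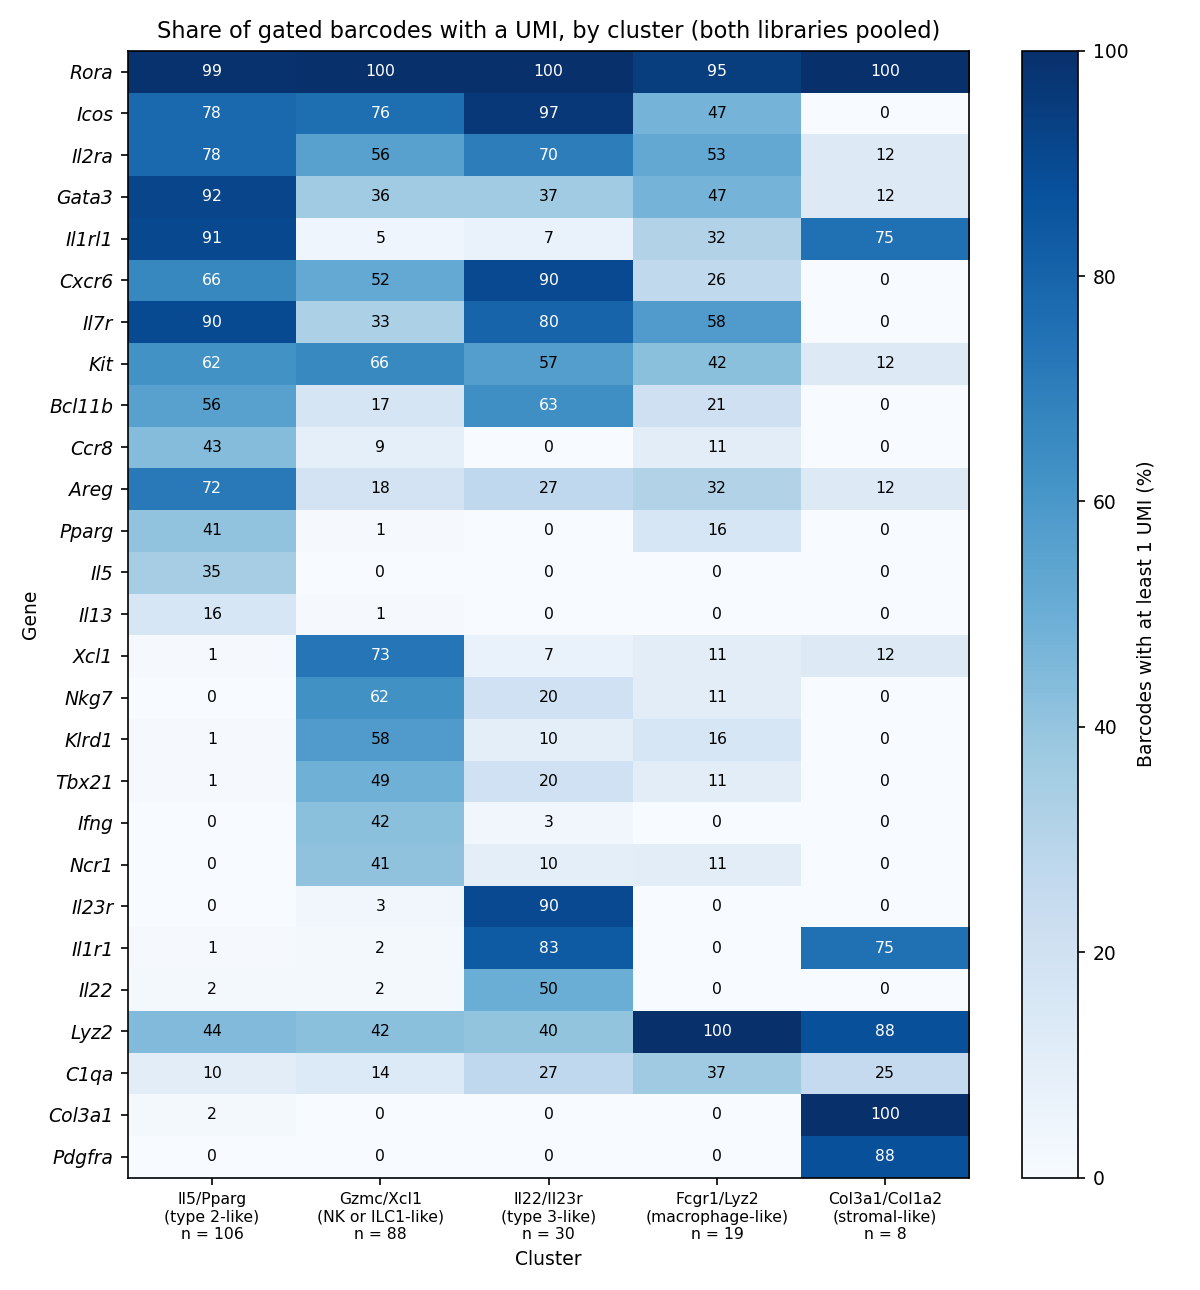
Heatmap of the percentage of barcodes with a UMI of each gene (rows) in each of the 5 clusters of members (columns, with their number of barcodes), with both libraries combined. Il5 was detected in 34.9% of the type 2-like cluster and in none of the other clusters, Il23r in 90.0% of the type 3-like cluster, and Xcl1 in 72.7% of the natural killer or ILC1-like cluster.

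The type 2-like cluster held 17 control IgG and 89 anti-CD3L1 barcodes and had a median of 4314 UMIs. Its 3 leading genes were Il5, Hs3st1, a heparan sulfate sulfotransferase, and Igsf5, and they were followed by Pparg, a nuclear receptor of lipid metabolism that group 2 cells express. Il1rl1 was detected in 90.6% of its barcodes, Gata3 in 91.5% and Il7r in 89.6%. Areg, the epidermal growth factor family ligand amphiregulin, was detected in 71.7%, Ccr8, a chemokine receptor of type 2 lymphocytes, in 43.4%, Pparg in 40.6% and Bcl11b, a transcription factor of T and group 2 cells, in 55.7%. These genes took part in the clustering and describe it. Within the cluster, Il1rl1 was detected in 17 of 17 control IgG and 79 of 89 anti-CD3L1 barcodes, Areg in 15 and 61, Il5 in 7 and 30, Il13 in 4 and 13, Ccr8 in 12 and 34 and Pparg in 7 and 36. Klrg1, a receptor of mature and activated group 2 cells, was detected in only 3 and 18 barcodes.

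The natural killer or ILC1-like cluster held 19 control IgG and 69 anti-CD3L1 barcodes. It was led by Gzmc, a granzyme, Xcl1, a chemokine for cross-presenting dendritic cells, and Cd2. Tbx21, which encodes T-bet, was detected in 48.9% of its barcodes, Nkg7, a cytotoxic granule protein, in 62.5%, Ifng in 42.0% and Ncr1 in 40.9%. The gate admitted 1 natural killer gene, and so admitted Ncr1 here. Il1rl1 was detected in 4.5% of the cluster and Gata3 in 36.4%, and most of these members entered through Icos (76.1%), Il2ra (55.7%) and Rora (100%).

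The type 3-like cluster held 7 control IgG and 23 anti-CD3L1 barcodes and was led by Il22, Blk, a Src-family kinase, and Il23r. Il23r was detected in 90.0%, Il1r1, the interleukin-1 receptor, in 83.3% and Il22 in 15 of 30. Il17a and Il17f were detected in 13.3% and 16.7%. Cd3e, a chain of the T cell receptor complex, was detected in 6.7% of these barcodes. Il1rl1 was detected in 6.7%.

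The macrophage-like cluster of 19 barcodes had Lyz2, lysozyme, in 100% and Cd74, the invariant chain of MHC class II, at 5752 CPM, and also Gata3 in 47.4%. The stromal-like cluster of 8 barcodes had Col3a1, a fibrillar collagen, at 13924 CPM and a median of 21645.5 UMIs. Ptprc, which encodes the CD45 used for sorting, was detected in 2 of these 8, whereas Il1rl1 was detected in 75.0%. As both clusters came from a single library, the library and the cluster cannot be told apart.

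**Figure D2:**
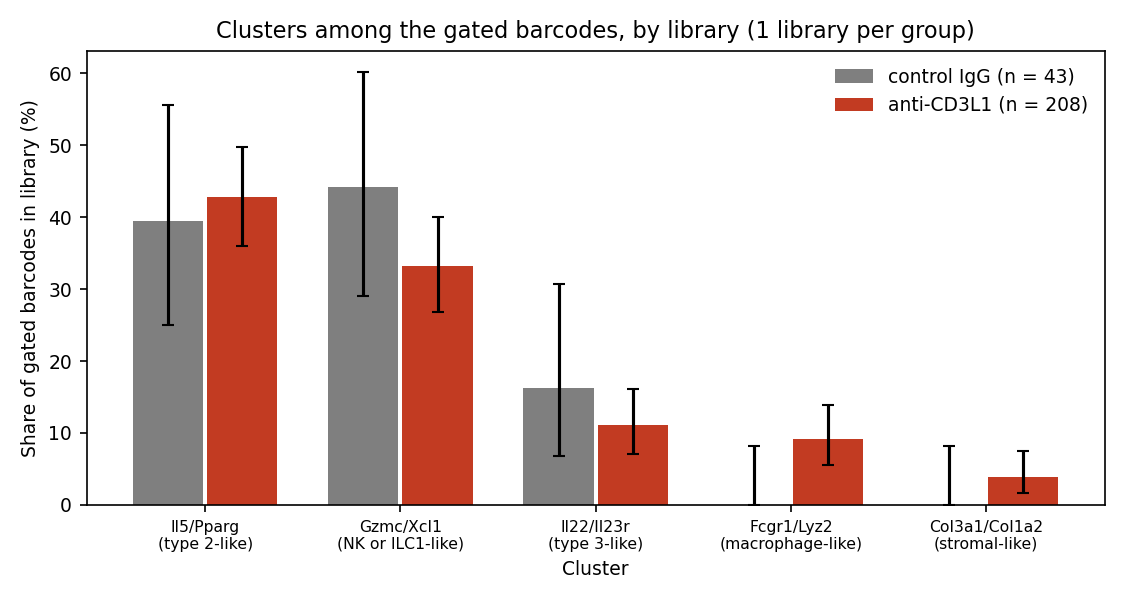
Share of the members (percent, y axis) in each of the 5 clusters for control IgG (43 members) and anti-CD3L1 (208 members), with exact 95% binomial intervals for counting error. The intervals of the 3 lymphoid clusters overlap between the libraries, and the macrophage-like and stromal-like clusters hold no control IgG member.

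The make-up of the members by cluster was similar for the 3 lymphoid clusters within counting error. The type 2-like cluster was 39.5% (25 to 55.6) of control IgG members and 42.8% (36 to 49.8) of anti-CD3L1 members. The natural killer or ILC1-like cluster was 44.2% (29.1 to 60.1) and 33.2% (26.8 to 40.0), and the type 3-like cluster 16.3% (6.81 to 30.7) and 11.1% (7.14 to 16.1). With 43 control members, differences smaller than these widths were not detectable. The macrophage-like cluster was 9.13% (5.59 to 13.9) of the anti-CD3L1 members and 0 of 43 control members (0 to 8.22).

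Other cell types that share the gate's genes were then checked by their defining markers. The mast cell proteases Mcpt4, Tpsb2 and Cma1 were at 0 UMIs in both libraries, and Cpa3 and Mcpt8 had 0 UMIs in the control IgG members and 9 and 10 in the anti-CD3L1 members. The B cell gene Ms4a1 was at 0, and Cd79a had 2 UMIs with control IgG and 0 with anti-CD3L1. Foxp3, the factor of regulatory T cells, was at 0 in both. Cd3e had 14 UMIs in 4 of 43 control members and 12 in 7 of 208 anti-CD3L1 members, and Trac, the constant part of the αβ T cell receptor, 14 and 16 UMIs. Trbc1, whose unrearranged transcripts natural killer and innate lymphoid cells also make, was detected in 62.8% and 54.3% of members and in 86.9% and 85.5% of natural killer-type barcodes.

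At least 2 markers of the T cell list were found in 26 control IgG members (60.5%) and 110 anti-CD3L1 members (52.9%), and that list includes genes such as Trbc1 that natural killer-type barcodes share. At least 2 markers of the macrophage and monocyte list were found in 3 control IgG members and 111 anti-CD3L1 members, and at least 2 of the stromal list in 1 and 12. For the mature dendritic cell list these were 5 control IgG members (11.6%) and 15 anti-CD3L1 members (7.21%). The summed macrophage list was 287.3 CPM in control IgG members with Ccr2 its most abundant gene, and 1761 CPM in anti-CD3L1 members with Apoe its most abundant gene. In barcodes of 10 to 100 UMIs, which hold mainly free RNA, the same list was 10136 and 19422 CPM. S100a9 was detected in 97.7% of control IgG members and in 7.69% of anti-CD3L1 members, beside 95.9% and 12.5% of natural killer-type barcodes. Free RNA was estimated from S100a8 and S100a9 at 1.15% of the UMIs of control members and 2.02% of those of anti-CD3L1 members. The gate capped these genes at under 2% of UMIs. The estimate and all values with free RNA subtracted thus draw on values that chose the members. The part of free RNA and of doublets in these values was not tested.

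Il5 was found mostly in the members. It had 96 UMIs in 7 of 43 control IgG members (275.8 CPM, 223.4 to 336.8) and 154 UMIs in 30 of 208 anti-CD3L1 members (101.9 CPM, 86.5 to 119.4). All 250 UMIs lay in the type 2-like cluster. Single barcodes held up to 38 of the 96 and up to 72 of the 154, so a few barcodes weigh heavily on the levels. Members held 88.9% of all Il5 UMIs in filtered control IgG barcodes and 92.8% in anti-CD3L1 barcodes, and 7 of the 11 and 30 of the 36 barcodes with any Il5. Il1rl1 was detected in 7 of the 7 and 28 of the 30 Il5 members. After thinning, Il5 was detected in 11.6% (5 of 43) and 4.83% (10 of 207) of members, in 1 of 5706 anti-CD3L1 macrophage-type barcodes and in none of the control macrophage-type, natural killer-type and S100-rich barcodes. Thinned to 2000 UMIs, the member shares were 9.76% (4 of 41) and 10.6% (21 of 198), so no order of the libraries is read from them.

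The other group 2 products differed in how widely they were expressed. Areg, with 184 UMIs (528.6 CPM) in control IgG members and 648 (428.9 CPM) in anti-CD3L1 members, was detected in 41.9% and 42.8% of members, and after thinning in 16.3% and 25.6%, against 2.1% and 1.1% of natural killer-type barcodes and 2.6% and 6.3% of macrophage-type barcodes. Il13 had 10 UMIs (28.7 CPM) and 45 UMIs (29.8 CPM) in 4 and 14 members. Il4, the type 2 cytokine of T helper and mast cells, had 1 and 7 UMIs, and Il9 had none. Of all 251 members, 37 had Il5, 18 had Il13 and 9 had both. Areg was detected in 29 of the 37 Il5 members and Pparg in 23, whereas Il22 was detected in 1 and Ncr1 in none. Il22, found in 19 members, and Il23r, found in 30, were detected together in 16.

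Il7r was at 597.5 CPM in control IgG members and 372.7 CPM in anti-CD3L1 members. After thinning it was detected in 30.2% and 33.3% of members and in 2.8% and 1.0% of natural killer-type barcodes, but also in 9.2% and 17.1% of macrophage-type barcodes, so it did not mark the members alone. Detection of other receptors differed from gene to gene. Il17rb, a chain of the interleukin-25 receptor, was detected in 6.98% and 4.33% of members, Crlf2, a chain of the receptor for thymic stromal lymphopoietin, in 10 of 43 and 52 of 208, Nmur1, the neuromedin U receptor, had 1 and 4 UMIs and Ptgdr2, a prostaglandin D2 receptor, 0 and 1. Il18r1, the interleukin-18 receptor, was detected in 86.0% and 57.2%. After thinning it was detected in 39.5% and 24.2% of members and in 33.1% and 14.0% of natural killer-type barcodes.

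**Figure D3:**
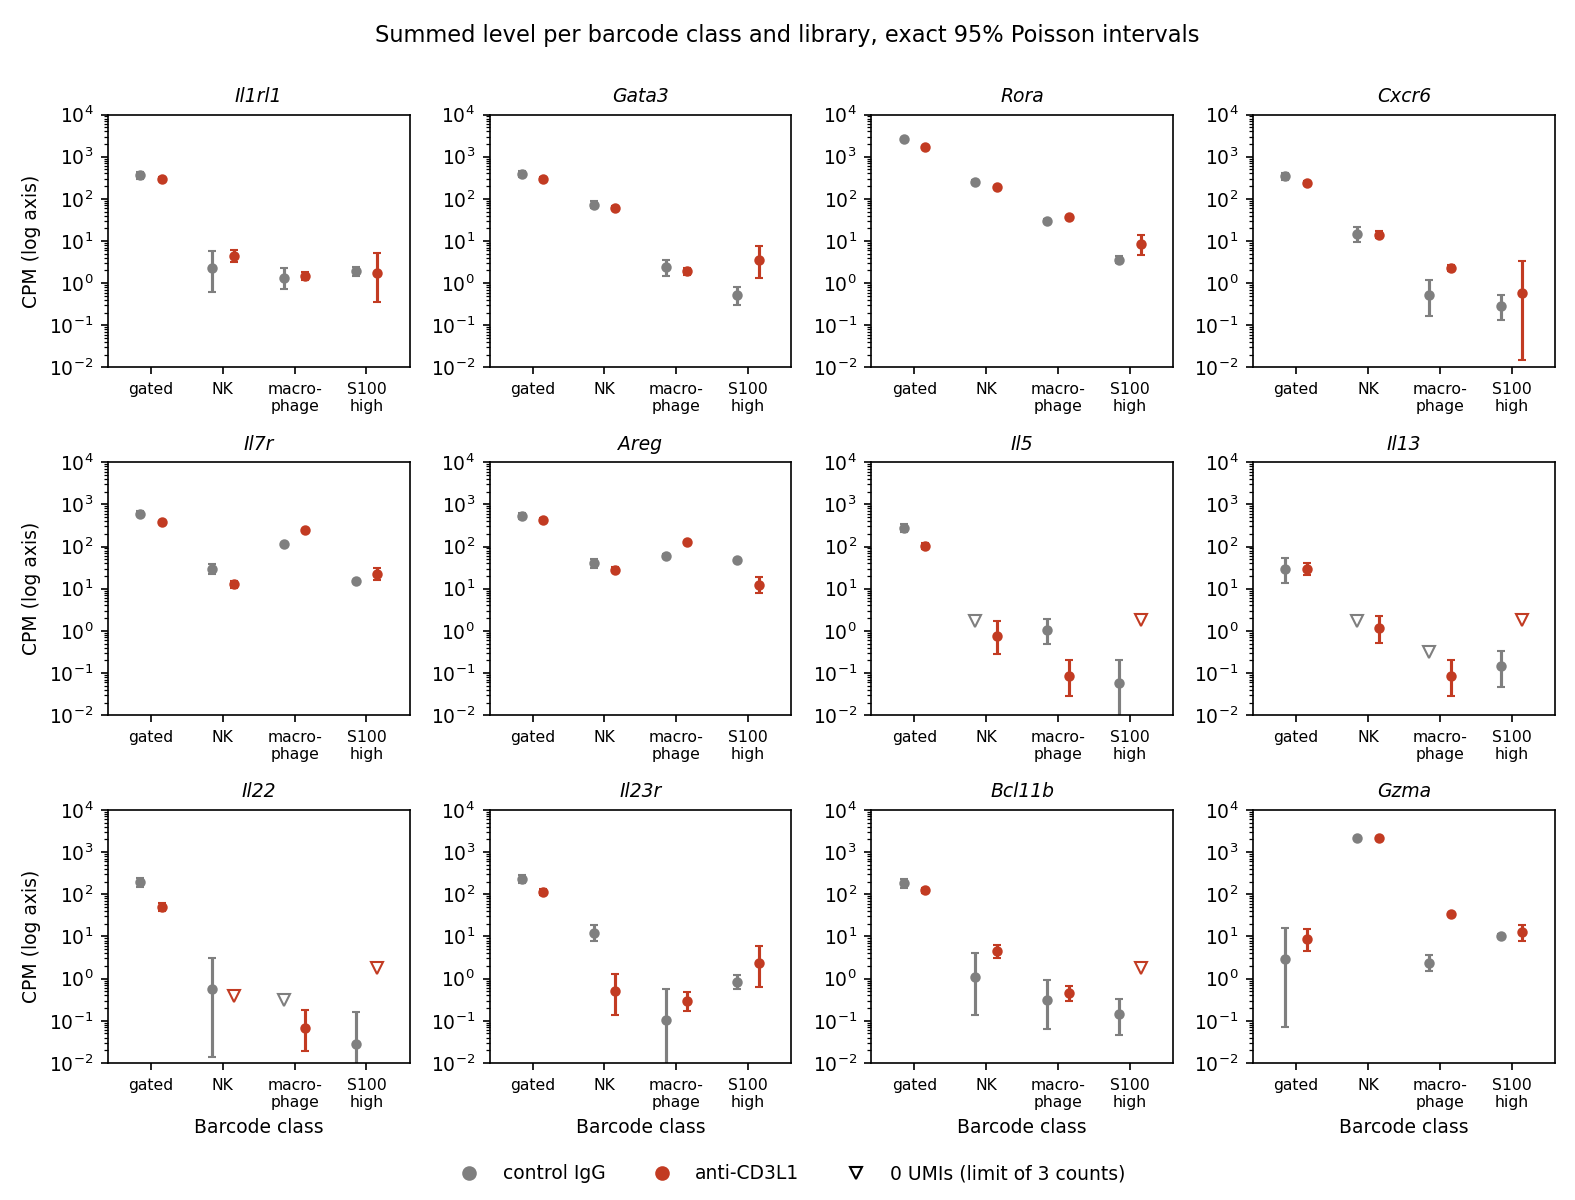
Level of selected genes (CPM, log axis) in members (gated), natural killer-type (NK), macrophage-type and S100a8/S100a9-rich barcodes of the control IgG and anti-CD3L1 libraries, with exact 95% Poisson intervals for counting error and open triangles at the limit of 3 counts where a class had 0 UMIs. Il5 stands at 275.8 and 101.9 CPM in members, and Areg at 528.6 and 428.9 CPM.

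Members were next set beside the 145 control IgG and 822 anti-CD3L1 natural killer-type barcodes, the other lymphoid class defined here, which had 2 or more of the 4 natural killer genes. Of 7722 genes with at least 20 UMIs over both sides in each library and not used by the gate, 245 (3.17%) were at least 2-fold higher in members in both libraries with counting intervals that excluded a ratio of 1, and 149 (1.93%) were lower in both. The gate separates these classes by natural killer genes, so genes that move with those separate too, and the counts are a description.

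The highest-ranked genes came from several of the clusters. Palld, an actin-binding protein, was at 591.8 CPM in control IgG members and 1.12 in natural killer-type barcodes, from 206 and 2 UMIs, and at 181.4 and 1.16 CPM in the anti-CD3L1 library. Most of its UMIs, 147 of 206 and 197 of 274, lay in the 30 barcodes of the type 3-like cluster. Pard3, a cell polarity protein, was 80.7-fold higher in control members against a floor of 3 UMIs over the natural killer-type class (log2 lower limit 5.98). In anti-CD3L1 members it was 248.0-fold higher. Il5 was 164.9-fold higher in control members against the same floor (log2 lower limit 7.04) and 132.3-fold higher in anti-CD3L1 members. Bcl11b was 162.3-fold (log2 interval 5.43 to 10.42, against 2 UMIs) and 27.7-fold higher. Il7r was 20.2-fold and 29.0-fold higher and Slco3a1, a solute transporter, 32.9-fold and 16.0-fold. Hlf, a transcription factor of blood progenitors and circadian output, was 67.0-fold and 24.7-fold higher. The lists named in the order of this rule also held Il22, Stxbp6, Ctnna2, Hs6st2, Hs3st1, Dach2, Npnt and Ptpn13.

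Genes lower in members included inhibitory Ly49 receptors. Klra7 had 0 UMIs in control members against 421 in natural killer-type barcodes and was 6.06-fold lower in anti-CD3L1 members. Klra3 had 0 against 114 and was 7.43-fold lower in the anti-CD3L1 library. Sh2d1a, an adaptor of SLAM receptors, and Setbp1 were also on the lower list, and Setbp1 was 6.49-fold and 4.11-fold lower.

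By gene group, beside the 3.17% of genes higher and 1.93% lower, 4 of 7 measured group 2 effector products were higher in members than in natural killer-type barcodes (Il5, Areg, Csf2, which encodes GM-CSF, and Calca, which encodes the neuropeptide CGRP) and none was lower. Of 19 measured lymphoid transcription factors, 5 were higher (Bcl11b, Hes1, Maf, Pparg and Ahr, the aryl hydrocarbon receptor). Of 19 cytokine and mediator receptors, 5 were higher, among them Ramp1, a chain of the CGRP receptor, Cysltr1, a leukotriene receptor, and Tnfrsf25, a TNF family receptor, and 1 was lower, Il10ra. Of 19 surface and homing genes, 5 were higher (Cxcr6, Ccr8, Itgb7, Cd44 and Ly6a) and 2 lower, Klrg1 among them. Of 17 checkpoint and costimulation genes, 3 were higher (Ctla4, Pdcd1 and Nt5e), and of 7 group 3 genes, 6 were higher. Of 19 natural killer and group 1 genes, 11 were lower and none higher, a direction that the gate sets in part. Of 14 cell cycle genes, 4 were lower and none higher.

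**Figure D4:**
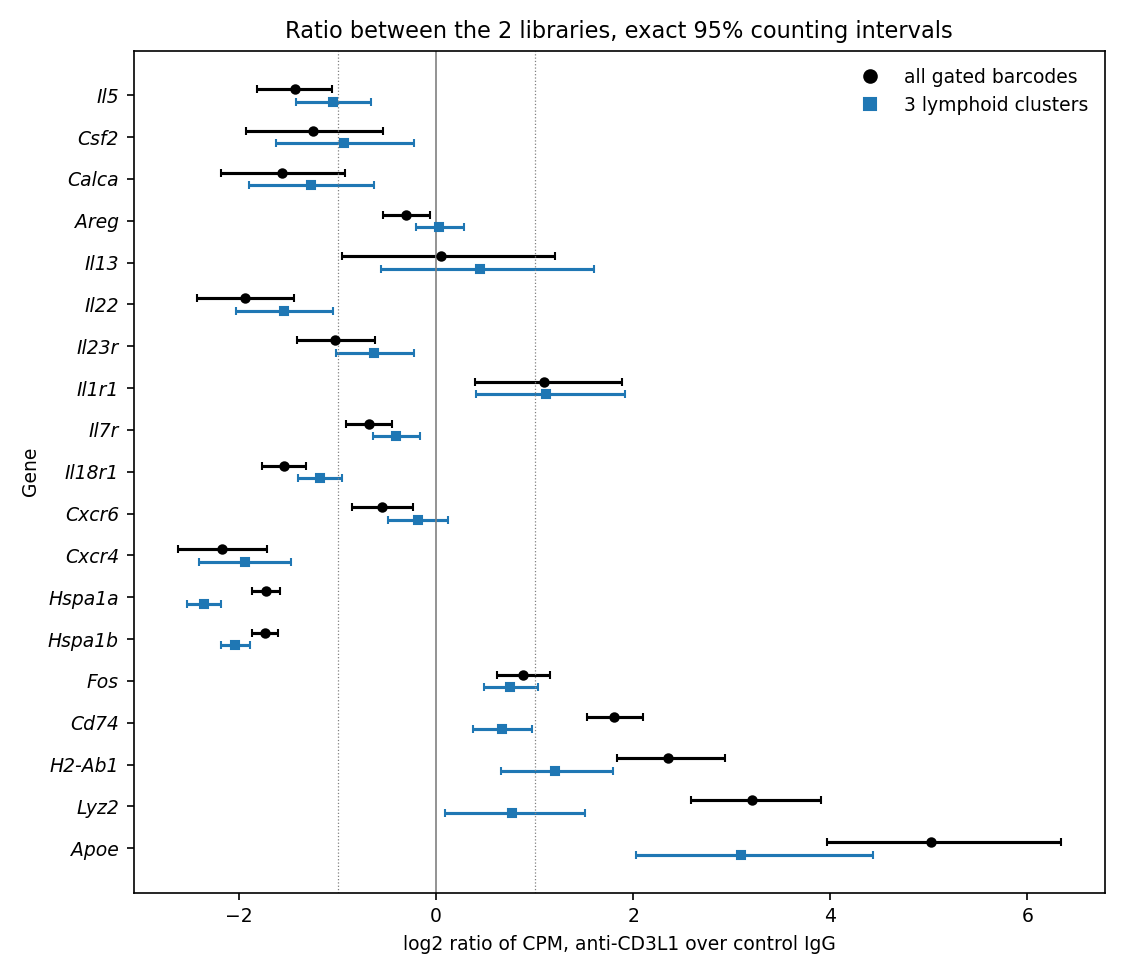
Ratio of the anti-CD3L1 to the control IgG level on a log2 scale (x axis) for selected genes, in all members (gated barcodes, circles) and in the 3 lymphoid clusters (squares), with exact 95% intervals for counting error and dotted lines at 2-fold. Cxcr4 and Hspa1b lie below 0 in both, and Cd74 moves from 1.81 in all members to 0.67 in the lymphoid clusters.

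The treatment comparison asked which genes differed between the anti-CD3L1 and control IgG members. It set 1 library beside another, so treatment, the tumours pooled and the library cannot be told apart. Of 8089 genes with at least 20 UMIs over both, 864 (10.7%) were at least 2-fold higher in anti-CD3L1 members with an interval that excluded a ratio of 1, and 206 (2.55%) were lower. Without the macrophage-like and stromal-like clusters, 6995 genes were measured, of which 360 (5.15%) were higher and 153 (2.19%) lower, and in the type 2-like cluster alone, of 3715 measured genes, 275 (7.4%) and 146 (3.93%). Over genes with UMIs on both sides, the median log2 ratio was 0.10 in the members and 0.08 in the lymphoid clusters. With genes at 0 on 1 side set to their bound, as in the list medians below, it was 0.13 in the members.

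The genes that led the higher side were those of the stromal-like cluster. Col3a1 had 2380 UMIs in anti-CD3L1 members and 0 in control members, and 2378 of them lay in the 8 stromal-like barcodes. Sparc, Col1a2, Col1a1, Bgn, Cpxm1, Mmp3, Reg3g and Fstl1, genes of the extracellular matrix and its turnover apart from the antimicrobial lectin Reg3g, also stood at 0 UMIs in control members. Cd63, a tetraspanin of endosomes and granules, had 545 UMIs against 0, of which 397 lay in the stromal-like and 111 in the macrophage-like cluster. Of 11 measured stromal and endothelial genes, 10 were higher and of 11 macrophage and monocyte genes, 9, beside the 10.7% background. In the lymphoid clusters these became 1 of 2 and 3 of 6, beside 5.15%.

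MHC class II genes, which present antigen, were higher in anti-CD3L1 members. All 7 measured were higher (median log2 ratio 2.22), beside 10.7% of all genes, and H2-Ab1, a class II chain, was at 89.1 CPM in control IgG and 456.7 CPM in anti-CD3L1 members. In the lymphoid clusters, 2 of 5 were higher, beside 5.15%, and in the type 2-like cluster 3 of 4 (H2-Aa, H2-Ab1 and H2-Eb1, median 1.30), beside 7.4%. In that cluster 2 of 3 macrophage genes (Apoe and Lyz2, median 1.08) and 2 of 2 stromal and endothelial genes (Col1a1 and Pecam1) were higher too, and their part in the class II ratios was not tested. A single barcode held 17 of the 20 Col1a1 UMIs of that cluster. From all members to the lymphoid clusters, the log2 ratio of H2-Ab1 went from 2.36 to 1.21 and that of Cd74 from 1.81 to 0.67. In natural killer-type barcodes the log2 ratio was 1.25 for H2-Ab1 and 1.71 for Cd74. In free RNA the class II list was 2398 CPM with control IgG and 10759 CPM with anti-CD3L1. With the estimated free RNA subtracted, 6 of the 7 class II genes were higher, and the log2 ratio was 2.33 for H2-Ab1 and 1.76 for Cd74. That estimate came from genes that the gate capped, so these values are a description.

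On the lower side, Cxcr4, the receptor for CXCL12 that retains lymphocytes in marrow and tumour stroma, had 86 UMIs in control members (247.1 CPM) and 83 in anti-CD3L1 members (54.9 CPM), a log2 ratio of -2.17 (-2.62 to -1.72). It was -1.94 in the lymphoid clusters, -1.40 in natural killer-type and -1.30 in macrophage-type barcodes. Hspa1b and Hspa1a, inducible heat shock proteins of the HSP70 family, were at 2473 and 2051 CPM in control members and 743.3 and 618.9 CPM in anti-CD3L1 members. Their log2 ratios were both -1.73 in members, -2.04 and -2.36 in the lymphoid clusters and -0.66 and -0.65 in natural killer-type barcodes. Without members that held 2 markers of another type, which left 13 control IgG and 42 anti-CD3L1 members, Hspa1b was at -0.59. It no longer met the 2-fold rule there, but met it in 10 of 11 alternatives. With the T cell list and Kit not counted among those markers, an alternative chosen after seeing the data, Hspa1b was at -1.68.

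Serpinb1a, an inhibitor of granulocyte proteases, was at 350.5 CPM in control members and 78.8 CPM in anti-CD3L1 members. Lcn2, a neutrophil protein, had 18 UMIs in 14 control barcodes and 11 in anti-CD3L1 members, all 11 in 1 stromal-like barcode, so the lymphoid clusters had 18 and 0. Its level in free RNA was 3435 CPM with control IgG and 22.4 CPM with anti-CD3L1. With free RNA subtracted, by the estimate from genes that the gate capped, its log2 ratio went from -2.83 to -0.78. It then no longer met the 2-fold rule. Themis and Cd6, proteins of T cell receptor signalling, had 34 and 25 UMIs in control members and 21 and 16 in anti-CD3L1 members. The control Themis UMIs lay in 5 barcodes, 19 of them in a single one. With at least 3 rule genes the log2 ratio of Themis went from -2.81 to 0.76. No interval is given for that value, so no direction is read from it. Of 14 measured T cell genes, 5 were lower (Cd3e, Trac, Tcrg-C1, Cd6 and Themis) and none higher, beside the 2.55% of all genes that were lower. In the lymphoid clusters 4 of 12 were lower and 1, Trdc, was higher, beside 2.19% and 5.15%, and in the type 2-like cluster none of 4 was past 2-fold. At the higher clustering resolution of 1, a T cell-like cluster held 4 control members (9.3%) and 6 anti-CD3L1 members (2.88%). Its part in these counts was not tested.

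Mpp7, a scaffold protein of cell polarity, had 230 UMIs in 43 control members (660.7 CPM) and 2 in 208 anti-CD3L1 members (1.32 CPM). This contrast was not particular to the members, as the log2 ratio was -8.96 in members, -5.49 in natural killer-type and -7.20 in macrophage-type barcodes. Tpd52l1 had 35 UMIs against 0 in members, and its log2 ratio was -7.11 and -6.38 in the other classes. Vmn2r96, a vomeronasal receptor gene, and Trmt61b, a mitochondrial tRNA methyltransferase, completed the lower list, with log2 ratios of -4.37 and -2.37 in members against -1.07 and -0.06 in natural killer-type barcodes. Vmn2r96 rested on 19 control UMIs in 5 barcodes, and a single barcode held 17 of the 37 control Trmt61b UMIs. Trmt61b was at -2.44 without members that held 2 markers of another type when the T cell list and Kit were not counted. With both counted it was at 0.81, and no interval is given from which to read a direction. The Vmn2r96 value there, -0.60, was a bound from the floor of 3 UMIs and gives no direction. Differences between these ratios were not tested.

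Among group 2 effector products, 3 of 14 measured genes were lower in anti-CD3L1 members and 1 was higher, beside 2.55% lower and 10.7% higher of all genes, with a median log2 ratio of -0.07. Il5 was lower by a log2 ratio of -1.44 (-1.81 to -1.05), and by -1.19 within the type 2-like cluster, although the share of that cluster with Il5 was 7 of 17 and 30 of 89. Csf2 was at -1.25 and Calca at -1.56. A single control barcode held 13 of the 29 control Csf2 UMIs, and a single one held 13 of the 38 control Calca UMIs. All anti-CD3L1 members held 53 and 56, so single barcodes weigh heavily on both ratios. In the lymphoid clusters Il5 and Calca were the 2 lower of 13, Csf2 was at -0.94 and 2 were higher, Il6 among them, beside 2.19% and 5.15%. In the type 2-like cluster 3 of 11 were lower (Il5, Csf2 and Calca) and 1 was higher (Il6), beside 3.93% and 7.4%. Areg was at -0.30 (-0.54 to -0.06) and Il13 at 0.05 (-0.96 to 1.21), an interval that spans lower and higher levels. Il6 had 74 UMIs in 9 anti-CD3L1 members and 0 in control members, 5.68-fold higher against a floor of 3 UMIs in the control class.

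The type 3 genes Il22 and Il23r were at 192.5 and 232.7 CPM in control IgG members and 50.3 and 114.5 CPM in anti-CD3L1 members, log2 ratios of -1.94 and -1.02. They rested on 3 and 9 control barcodes, and up to 39 of the 67 control Il22 UMIs were in a single barcode. In the lymphoid clusters the ratios were -1.54 and -0.63. Of 23 receptors, 2 were lower (Il18r1, -1.55, and Cysltr1, -1.61), beside 2.55% of all genes, and 3 higher (Il1r1, Tgfbr1 and Csf2rb), a share near the 10.7% of all genes. In the lymphoid clusters the same 2 of 23 were lower and 2 were higher (Il1r1 and Tgfbr1), beside 2.19% and 5.15%. Il18r1 was also at -1.22 in natural killer-type barcodes. None of 20 lymphoid transcription factors was past 2-fold in either direction (median -0.55), while in the lymphoid clusters Hes1 of 20 was lower, and in the type 2-like cluster 3 of 17 were lower (Zbtb16, Hes1 and Ikzf3) and 1 was higher (Batf), beside 3.93% and 7.4%. Of 17 checkpoint and costimulation genes, 3 were lower (Pdcd1, -1.10, Tnfrsf4 and Nt5e, -1.02) and 1 was higher (Lgals1), beside 2.55% and 10.7%. None of those 4 was past 2-fold in the lymphoid clusters, where 0 of 16 checkpoint genes were lower and 1, Cd27, was higher, beside 2.19% and 5.15%. Of 23 surface and homing genes, 3 were higher, Ccr7 and Ccr9 among them, and 1 was lower (Cxcr4), beside 10.7% and 2.55%, against 3 and 1 of 22 in the lymphoid clusters, beside 5.15% and 2.19%.

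Gzmc, named after its values were seen, had 68 UMIs in control IgG members (195.3 CPM) and 1553 in anti-CD3L1 members (1028 CPM), a log2 ratio of 2.40 (2.05 to 2.77). A single barcode held 59 of the 68 control UMIs, and the top 3 barcodes held 94.1% in the control library and 57.3% in the anti-CD3L1 library. In natural killer-type barcodes it went the other way, from 1412 CPM with control IgG to 224.3 CPM with anti-CD3L1.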

How the data were processed

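Per the labels and the methods, CD45-positive cells from 3 tumours of each group were sorted with magnetic beads and sequenced with the 10x Genomics Chromium system as 1 library. The deposited matrices hold UMI counts per gene and barcode from the authors' run of Cell Ranger 7.1.0, with every barcode kept (1084690 for control IgG and 1548857 for anti-CD3L1, with 74850604 and 108246719 UMIs) and no cell call. The labels name the GRCm39 build. The study filtered with Seurat 5.1.0 at 200 to 6000 genes and under 5% mitochondrial reads, and a minimum of 500 UMIs was added here. A table of macrophage genes that holds the authors' own fold changes and p-values was not used, and 0 columns of per-sample values were left aside.

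Members and gene lists were chosen with earlier results of these data known, and 22 lists were described. Members were normalised to 10000 UMIs and clustered with scanpy 1.11.5 (1500 variable genes, 15 components, 15 neighbours, Leiden resolution 0.5). A cluster was named if its 60 leading genes held at least 3 markers of a fixed list. Natural killer-type barcodes had at least 2 of 4 natural killer genes, and macrophage-type barcodes at least 2 of C1qa, C1qb, C1qc and Csf1r. UMIs were summed per class and library and ratios of sums were given with exact conditional binomial 95% intervals (scipy 1.17.1). A gene was measured with at least 20 UMIs over both sides and was counted as higher or lower at 2-fold with an interval that excluded 1. A count of 0 was set to 3 UMIs over the class for a bound, which leaves out the counting error of the other side. Genes named were those of the rule, those of the lists, the 10 higher and 10 lower in anti-CD3L1 members and the 15 higher and 5 lower in members than in natural killer-type barcodes, ranked by the interval bound nearest to 1, at 50 CPM or more, and some genes that the rule names are not reported here. The ratio intervals were tested on simulated data, the outcome of which is not given here. Intervals and floors cover counting error only, and with 1 library per group no p-value was computed. Alternatives varied the gate, the weighting of barcodes, the UMIs counted in the total, the thinning depth, the resolution and the minimum UMIs, and subtracted free RNA.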

Additional observations from a re-analysis of the deposited data

Results flagged for a closer look

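For 5 genes named above or taken from the same list or family after their values were seen, the anti-CD3L1 over control IgG ratio went in opposite directions in the members and in natural killer-type barcodes, with counting intervals on opposite sides of 0, and with 1 library per group the difference between the classes was not tested. The granzyme gene Gzmc had a log2 ratio of 2.40 in members and -2.65 in natural killer-type barcodes. Its neighbours in the granzyme family, Gzmd and Gzme, had 29 and 25 UMIs in anti-CD3L1 members and 0 in control members. Against a floor of 3 control UMIs their log2 ratios were 1.16 and 0.94, and the exact intervals had lower limits of 0.76 and 0.54. In natural killer-type barcodes their log2 ratios were -3.95 and -2.73. Fcgr1, a macrophage Fc receptor, had 40 UMIs against 0 in members, a log2 ratio of 1.62 against the same floor (exact lower limit 1.25). In natural killer-type barcodes the log2 ratio of Fcgr1 was -1.12. Of the 40 UMIs, 37 lay in the macrophage-like cluster, and the lymphoid clusters had 3 against 0, which gives no direction. Cd6 had a log2 ratio of -2.76 in members and 1.79 in natural killer-type barcodes. The member value rested on 25 control UMIs in 6 barcodes, 9 of them in a single one. The natural killer-type value rested on 4 control UMIs in 4 of 145 barcodes (log2 interval 0.36 to 3.71). Cd6 met the 2-fold rule in 7 of 11 alternatives, and was at -0.51 without members that held markers of another type other than the T cell list and Kit. Granzyme family genes share sequence, and reads that fit several of them are not told apart by these counts.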

How the results depend on the processing

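No paired analysis was possible because each group had 1 library, so no replicate could be left out either. Members were 1.54% and 1.93% of the barcodes with low S100a8 and S100a9 in the control IgG and anti-CD3L1 libraries. These became 0.895% and 1.46% when no natural killer gene was allowed and 0.466% and 0.391% without members that held 2 markers of another type. In the anti-CD3L1 library the share was 1.37% with at least 3 rule genes, 1.52% after thinning to 1000 UMIs and 0.846% when the T cell list and Kit were not counted among those markers, an alternative chosen after seeing the data. The ratio of the shares, anti-CD3L1 over control, was 1.26 and ranged from 0.716 to 1.63. It was below 1 under both exclusions of other markers, at 0.839 and 0.716.

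The 864 genes higher in anti-CD3L1 members became 377 with at least 3 rule genes, 183 without members holding other markers and 213 without counting the T cell list and Kit, and, chosen after seeing the data, 360 in the lymphoid clusters and 275 in the type 2-like cluster, with 221, 22, 87, 286 and 88 genes shared with the 864. With free RNA subtracted, 850 genes were higher, 835 of them shared. The 206 lower genes became 111 without members holding other markers, 21 of them shared. Against natural killer-type barcodes, 440 genes were higher with no minimum of UMIs, and 441 were lower for the type 2-like cluster alone. At 2000 UMIs, Il7r was detected in 53.7% and 50% of members and Areg in 31.7% and 32.3%. At resolution 1 the type 2-like share was 34.9% of control and 27.4% of anti-CD3L1 members, the opposite order to 39.5% and 42.8%. At that resolution an unnamed cluster of 2 control and 35 anti-CD3L1 members, with Igsf5, Dach2, Pde7b and Pparg among its leading genes, was not counted as type 2-like. Over the named genes and alternatives, the log2 ratio of Themis was 0.76 with at least 3 rule genes. That of Trmt61b was 0.81 without members holding other markers. Neither value has an interval here, so no direction is read from them. Of the other values, 141 kept direction and call. In 46 the call was lost, in some through the interval or the minimum of UMIs with the ratio still past 2-fold (Tpd52l1 -5.02 with no natural killer gene), and in others because few UMIs were left and only a bound could be given (Col3a1 in the lymphoid clusters). The cause was not tested. The 43 control members limit the precision of every share.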

Other observations

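Lists of other pathways gave few differences between the libraries beyond those that moved with the macrophage-like and stromal-like clusters. The counts stand beside 10.7% of all genes higher and 2.55% lower in anti-CD3L1 members, and 5.15% and 2.19% in the lymphoid clusters. Of 18 measured interferon-stimulated genes, 2 were higher in anti-CD3L1 members (Ifit2 and Ifitm3, antiviral proteins), a share near that background, and none lower. In the lymphoid clusters the same 2 of 17 were higher, beside 5.15%, and none lower. Of 10 in the type 2-like cluster, none was higher and 1, Ifi27l2a, was lower, beside 7.4% and 3.93%. Against natural killer-type barcodes, 4 of 15 were higher in members in both libraries (Isg15, Ifit1, Rsad2 and Ifi27l2a), beside 3.17% of all genes in that comparison. None of 13 cell cycle genes and none of 9 MHC class I genes was past 2-fold between the libraries, with median log2 ratios of -0.01 and -0.20. Within the type 2-like cluster, 3 of 5 measured cell cycle genes were higher with anti-CD3L1 (Top2a, Stmn1 and Tuba1b), with a median log2 ratio of 1.30, beside 7.4% of all genes measured in that cluster. Of 19 immediate early and stress genes, Egr1 was higher and Hspa1a and Hspa1b were lower in anti-CD3L1 members. Egr1 had a log2 ratio of 1.48 in members and -0.17 in the lymphoid clusters. There, none of the 19 was higher and 3 were lower (Hspa1a, Hspa1b and Dnajb1), beside 5.15% and 2.19%. In the type 2-like cluster 2 of 19 were higher (Fos and Nr4a3) and the same 3 were lower, beside 7.4% and 3.93%. Beside natural killer-type barcodes, 4 of 19 genes of that list, Fos, Fosb, Atf3 and Dusp1, were higher in members in both libraries, beside the same 3.17%.

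The remaining cell type lists gave these counts in anti-CD3L1 over control IgG members, beside 10.7% of all genes higher and 2.55% lower. Of 8 mature dendritic cell genes 6 were higher and 1 lower, of 6 plasmacytoid dendritic cell genes 4 were higher, of 8 group 3 genes 1 was higher and 3 lower, of 14 natural killer and group 1 genes 1 was higher and 4 lower, of 3 B and plasma cell genes 1 was higher, of 2 dendritic cell genes 1 was higher, of 2 neutrophil genes 1 was lower, and of 2 mast cell and basophil genes none was past 2-fold. In the 3 lymphoid clusters the background was 5.15% higher and 2.19% lower. In them, 1 of 3 mature dendritic cell genes, 1 of 4 plasmacytoid dendritic cell genes, 1 of 2 dendritic cell genes and 1 of 2 mast cell and basophil genes (Hdc) were higher and none lower. There, 1 of 7 group 3 genes was higher and 1 lower, 1 of 14 natural killer and group 1 genes was higher and 2 lower, and the 1 measured B and plasma cell gene and the 1 measured neutrophil gene were not past 2-fold.

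At the higher resolution of 1, a cluster of 10 members, 4 from control IgG and 6 from anti-CD3L1, was led by T cell genes, among them Cd5, Cd40lg, Themis, Cd6 and Cd3e, and was called T cell-like by the same marker rule. The nude strain lacks a thymus, and the origin of these barcodes was not tested.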
